A study of Mus musculus with 4 samples.

Results

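NF-kappaB is a family of 5 DNA-binding subunits held in check by a set of inhibitors, and the genes described are those subunits (Rela, Relb, Rel, Nfkb1 and Nfkb2) with 5 of the inhibitors (Nfkbia, Nfkbib, Nfkbie, Nfkbiz and Tnfaip3). They were chosen by symbol, each matched 1 row of the count table, and they make up 10 of its 54752 genes. All 10 passed the filter on low counts. RNA from whole mouse abdominal aortic grafts, 4 weeks after transplantation, had been depleted of ribosomal RNA and sequenced. The ALLO group (n = 2) holds allografts undergoing chronic rejection, per the series title, and the ISO group (n = 2) is known here only by those letters. For neither group do the labels state strain, sex, age, genotype of donor or recipient, or any drug treatment. Whole grafts hold vessel wall cells and infiltrating cells together.

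In resting cells, dimers of the subunits sit in the cytoplasm bound to inhibitors of the IkappaB family. Signals from TNF, interleukin-1, Toll-like or antigen receptors activate the IKK kinase, which marks the inhibitor for destruction, and the freed dimer enters the nucleus. In the non-canonical route, lymphotoxin, CD40 or BAFF receptors stabilise the kinase encoded by Map3k14, and the Nfkb2 precursor is cut to a partner of RelB. Several inhibitors are themselves induced by NF-kappaB, which closes a negative feedback loop. In a vessel wall the pathway is known for switching on adhesion molecules and chemokines in endothelium and smooth muscle, and in leukocytes for cytokine production and survival.

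Because the inhibitor genes are known as NF-kappaB targets, the kappaB motifs just upstream of RefSeq start sites of the genes are shown first. RefSeq upstream windows on GRCm38.p6 (the assembly that mm10 names) were at hand for 7 of the 10 genes, 10 windows of 250 bases in all, since Nfkb2 and Tnfaip3 have more than 1 start site. The kappaB consensus, the decameric motif bound by the dimers, was searched on both strands and overlapping matches were counted once. It was found in 7 of the 10 windows, belonging to 5 genes (Rel, Nfkb2, Nfkbia, Nfkbie and Tnfaip3), and in 3.9% of all 32851 windows of the same length. All Nfkb2 windows were among the 7, and those starting at 46305445 and 46305680 overlapped each other. The windows are therefore not separate observations, and the share of genes with a match was not computed over all genes. The windows of Rela and Nfkbib, and the window of the other Tnfaip3 start site, held no match to this consensus. These sequences run 5′ to 3′ on the strand of the gene, and capitals mark the matches.
Nfkbie, chr17:45555450-45555699, plus strand: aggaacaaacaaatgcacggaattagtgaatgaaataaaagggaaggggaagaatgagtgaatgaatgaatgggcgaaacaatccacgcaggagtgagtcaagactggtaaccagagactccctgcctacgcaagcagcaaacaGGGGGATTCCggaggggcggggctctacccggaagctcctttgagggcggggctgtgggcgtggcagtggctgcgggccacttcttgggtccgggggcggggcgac
Rel, chr11:23770971-23771219, minus strand: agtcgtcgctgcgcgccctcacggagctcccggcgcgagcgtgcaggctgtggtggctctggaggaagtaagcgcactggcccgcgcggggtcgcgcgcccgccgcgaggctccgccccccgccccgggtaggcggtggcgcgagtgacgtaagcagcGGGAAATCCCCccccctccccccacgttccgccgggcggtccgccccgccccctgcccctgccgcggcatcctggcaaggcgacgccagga
Nfkbia, chr12:55492648-55492897, minus strand: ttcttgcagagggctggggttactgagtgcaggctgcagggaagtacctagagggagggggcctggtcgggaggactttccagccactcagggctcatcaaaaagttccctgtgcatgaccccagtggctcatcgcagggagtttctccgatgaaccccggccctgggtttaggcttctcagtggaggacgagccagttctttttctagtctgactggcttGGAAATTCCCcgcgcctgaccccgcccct
Tnfaip3, chr10:19015411-19015427, minus strand: ccatcGGAAATCCCCct
Tnfaip3, chr10:19015521-19015540, minus strand: acgcgGGGACACCCCggggc
Nfkb2, chr19:46304693-46304713, plus strand: gtcacGGGAATTCCCCccctc
Nfkb2, chr19:46304721-46304736, plus strand: cgaaaGGGGCTTTCCc

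The match of Nfkbia began 29 bases before its start site, that of Rel 92 bases and that of Nfkbie 106 bases before it. Nfkb2 had 2 separate matches in the window of its first start site, at 39 and 11 bases before it. Its other windows began inside the gene and had 1 match each, at 236 and 225 bases before their start sites, with sequences not shown. Every Nfkb2 match lay in an annotated exon. The first of the 2 windows of Tnfaip3 also had 2 separate matches, at 125 and 12 bases. Both windows of Tnfaip3 lay within the annotated span of that gene, the first but for its outermost bases. The 2 matches of Tnfaip3 lay outside exons. Only 0.143% of all windows held 2 or more separate matches. A match describes the letters in the window; binding was not measured in these data.

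The 4 libraries held 17532344 to 20194854 counts. Smooth muscle markers (6 of 6 lower in ALLO) summed to 28261 and 28339 CPM, read counts scaled to a common library size after correction for composition, in the ISO libraries and to 1157 and 2402 CPM in the ALLO libraries, so the labelled tissue was recognisable in each. Leukocyte markers (6 of 6 higher) summed to 165 CPM in ISO replicate 1 and 43.2 CPM in ISO replicate 2, against 2400 and 2234 CPM in ALLO. ISO replicate 1 stood apart from its partner in all 6 of them, in B cell markers (38.6 against 0.422 CPM) and in carrying 10647 counts of Xist and 0 of the Y-linked Ddx3y, where the other libraries had at most 8 and at least 2105. By these sex-linked counts the ISO libraries are not repeats of 1 sample. For the ALLO libraries the labels do not state whether they are separate animals, so their spread may not be that between animals. Each p-value reflects the spread among these 4 samples alone.

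With 2 libraries a group, edgeR's quasi-likelihood test with Benjamini-Hochberg adjustment over 16498 genes called 7 of the 10 genes higher in ALLO and 0 lower, where 33.1% of all genes tested were called, 18.4% higher and 14.8% lower. The inhibitor genes Nfkbie and Tnfaip3 and the subunit gene Rel were the 3 with the highest fold changes, 7.30- to 16.0-fold. Relb, Nfkb2, Nfkbib and Nfkb1 rose 1.71- to 2.64-fold. Rela, Nfkbia and Nfkbiz did not pass. The median log2 change of the 10 genes was 1.04, beside 0.03 over all genes tested. In CPM the 2 groups did not overlap for any of the 10 genes, 9 of them higher in ALLO, but this was so for 72.5% of all genes tested (37.1% higher).

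**Figure D1:**
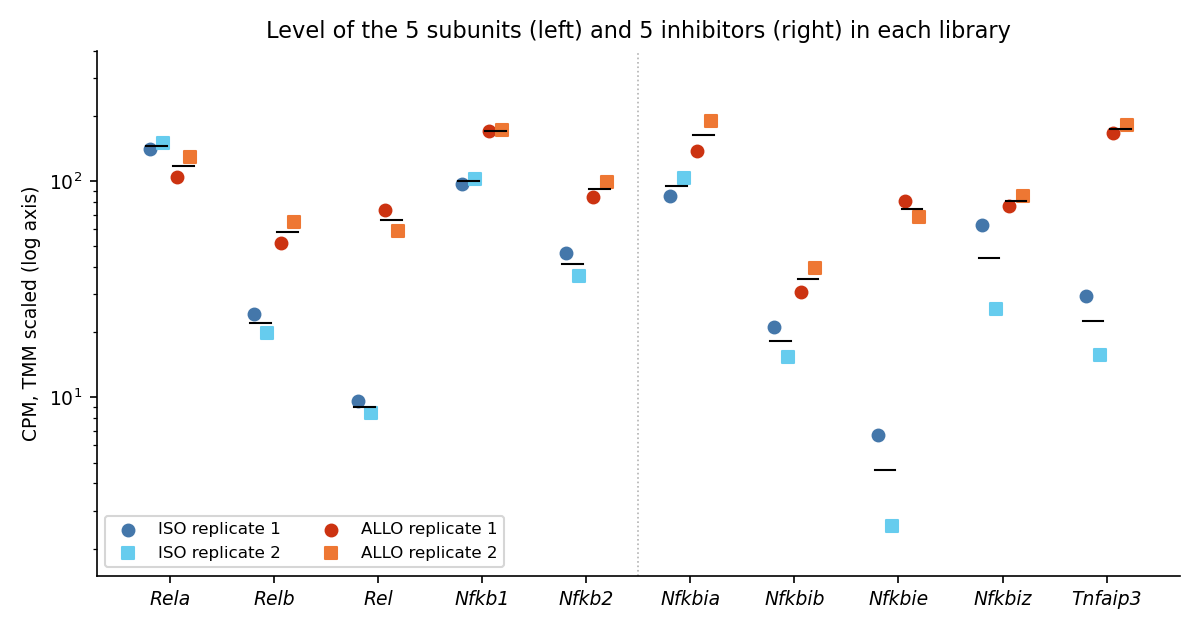
CPM of each gene on a log axis, 1 point per library (ISO in blues, ALLO in red and orange), with a black bar at each group's mean; subunits stand left of the dotted line and inhibitors right of it. Rel, Nfkbie and Tnfaip3 show the widest gap between groups, and Rela is the gene with both ALLO points below both ISO points.

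In bulk tissue such as this, a change in the number of cells of a type and a change in RNA per cell cannot be told apart. The leukocyte sums above were higher in ALLO, so in a contrast of 2 groups they run alongside any gene that rose. Within ALLO, replicate 1 had the higher leukocyte sum. Ptprc, Cd53, Cd48 and Cd52 had that order, and Coro1a and Laptm5 had the opposite one. T cell, B cell, plasma cell and neutrophil sums were also higher in replicate 1. Macrophage and dendritic cell sums were higher in replicate 2. Rel and Nfkbie were higher in replicate 1, and Relb, Nfkb2, Nfkb1, Nfkbib and Tnfaip3 in replicate 2. With 2 libraries and markers that differ in order, these orders tie no gene to leukocyte content. T cell markers (6 of 6 higher) summed to 2.17 to 7.37 CPM in ISO and 186 to 216 CPM in ALLO, and macrophage markers (5 of 6 higher) to 284 to 490 and 3016 to 3338 CPM. None of these markers was at 0 in both libraries of a group. Endothelial markers (3 of 5 lower) summed to 1087 and 1147 CPM in ISO and 451 and 498 CPM in ALLO. Mitochondrial genes took 9.02% and 5.42% of counts in ISO and 1.92% and 1.87% in ALLO, and immunoglobulin genes at most 0.0709% in ISO against 11.2% and 3.08% in ALLO. With immunoglobulin, T cell receptor and mitochondrial genes left out of the fit, 8 of the 10 genes were called, Nfkbia joining the 7. Over all genes that fit tested 16255 and called 5593. Leaving genes out of the fit does not change the counts of the others, so it cannot show the part of cell makeup. The part of these differences in cell and RNA makeup in the changes was not tested.

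Among the 3 subunits with their own activation domain, Rela encodes the broadly expressed partner of most canonical dimers (ENSMUSG00000024927.7, chromosome 19, 5637483 to 5648130, mm10). Its level was 141 and 149.6 CPM in ISO replicates 1 and 2 and 104 and 129.8 CPM in ALLO replicates 1 and 2. The ALLO values lay below both ISO values, with ALLO replicate 1 lowest. The log2 change of -0.31 ± 0.20 (SE), or 1.24-fold lower in ALLO, did not pass (edgeR adjusted p = 0.302). Under all 16 alternative settings it stayed between -0.47 and -0.12 and never passed.

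Rel encodes c-Rel, the subunit best known from lymphocytes and other blood-derived cells (ENSMUSG00000020275.9, chromosome 11, 23736847 to 23770970). It had 9.59 and 8.51 CPM in the ISO libraries and 73.5 and 58.7 CPM in the ALLO libraries. Both ALLO libraries were several times above ISO, and the ISO libraries lay close together. The log2 change was 2.87 ± 0.22 (7.30-fold, edgeR adjusted p = 0.00319). With each library left out in turn the fold ranged from 6.63 to 8.15 and passed each time.

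Relb, the subunit of the non-canonical pathway and a factor of dendritic cell maturation (ENSMUSG00000002983.17, chromosome 7, 19606217 to 19629438), had 24.3 and 19.9 CPM in ISO and 51.9 and 64.7 CPM in ALLO. The lowest ALLO library was above the highest ISO library. Relb rose 2.64-fold (log2 change 1.40 ± 0.22, edgeR adjusted p = 0.0106).

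The other 2 subunits are made as precursors whose C-terminal ankyrin repeats act as inhibitors until they are removed. Nfkb2 (ENSMUSG00000025225.14, chromosome 19, 46304737 to 46312090), the precursor that the non-canonical route processes, had 46.4 and 36.4 CPM in ISO and 84.1 and 98.7 CPM in ALLO. It rose 2.21-fold (log2 change 1.14 ± 0.21, edgeR adjusted p = 0.0157). Without ISO replicate 2 the call was lost (1.94-fold, edgeR adjusted p = 0.0940). Nfkb1 (ENSMUSG00000028163.17, chromosome 3, 135584655 to 135691547), the precursor of the usual partner of the Rela protein, had 97.4 and 102 CPM in ISO and 169.5 and 172 CPM in ALLO. Replicates of Nfkb1 nearly coincided within each group. Its rise was the smallest to pass, 1.71-fold (log2 change 0.77 ± 0.18, edgeR adjusted p = 0.0294), and was lost without ISO replicate 1 (edgeR adjusted p = 0.245) or ISO replicate 2 (0.229), although the fold then was 1.65 and 1.73. It was also lost with no filter on low counts (edgeR adjusted p = 0.0535) and against a 1.5-fold threshold (0.181).

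The classical inhibitors mask the nuclear localisation signals of the dimers through ankyrin repeats. Nfkbie, which encodes IkappaB-epsilon (ENSMUSG00000023947.8, chromosome 17, 45555703 to 45563169), had 6.72 and 2.53 CPM in ISO and 80.5 and 68.0 CPM in ALLO. The lower ALLO library was about 10 times the higher ISO library. The change of 4.00 ± 0.50 (16.0-fold, edgeR adjusted p = 0.00623) was the largest of the 10. ISO replicate 1 had 2.65 times the CPM of ISO replicate 2, and leaving out replicate 1 gave a fold of 28.9, leaving out replicate 2 one of 10.9, both past the threshold.

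Nfkbia, which encodes IkappaB-alpha, the fast feedback inhibitor of canonical signalling (ENSMUSG00000021025.8, chromosome 12, 55489410 to 55492647), had 85.7 and 104 CPM in ISO and 138 and 189 CPM in ALLO. The ALLO libraries were higher but differed from each other by more than the ISO libraries did. The change of 0.79 ± 0.24 (1.72-fold) missed the threshold (edgeR adjusted p = 0.0620). It passed without ALLO replicate 1 (2.04-fold, edgeR adjusted p = 0.0401), with the Wald test of DESeq2 (adjusted p = 0.0175) and under 3 other settings.

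Nfkbib encodes IkappaB-beta, a slower inhibitor (ENSMUSG00000030595.15, chromosome 7, 28758251 to 28767512). It had 21.2 and 15.5 CPM in ISO and 30.7 and 39.8 CPM in ALLO. The change of 0.94 ± 0.27 (1.92-fold) passed narrowly (edgeR adjusted p = 0.0494) and was lost with any 1 library left out (edgeR adjusted p = 0.0527 to 0.241), with upper quartile scaling (0.0548), with a filter on the mean count (0.0554) and against a 1.5-fold threshold (0.155). Sirt2 and Ccer2, read from the other strand, overlap 16.4% of its exonic bases, and no source used here says whether counting used strand, so this value is uncertain. Exons of the other 9 genes shared at most 0.12% of their bases with another gene.

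Nfkbiz encodes IkappaB-zeta, a nuclear relative that works with NF-kappaB on a subset of promoters (ENSMUSG00000035356.17, chromosome 16, 55811375 to 55838899). Its ISO libraries stood far apart, at 62.9 CPM in replicate 1 and 25.7 CPM in replicate 2, with 76.4 and 85.5 CPM in ALLO. ISO replicate 1 was nearer to the ALLO libraries than to its own partner. The change of 0.87 ± 0.43 (1.83-fold) did not pass (edgeR adjusted p = 0.184). Without ISO replicate 1 it was 3.12-fold and passed (edgeR adjusted p = 0.00867), and without ISO replicate 2 it was 1.27-fold (0.554).

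Tnfaip3 encodes the ubiquitin-editing enzyme that shuts off signalling from TNF and Toll-like receptors upstream of IKK (ENSMUSG00000019850.11, chromosome 10, 19000910 to 19015657). It had 29.4 and 15.6 CPM in ISO and 166 and 181 CPM in ALLO. Both ALLO libraries were over 5 times the higher ISO library. Tnfaip3 rose 7.72-fold (log2 change 2.95 ± 0.35, edgeR adjusted p = 0.00574), with a fold of 5.83 to 11.0 when 1 library was left out.

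**Figure D2:**
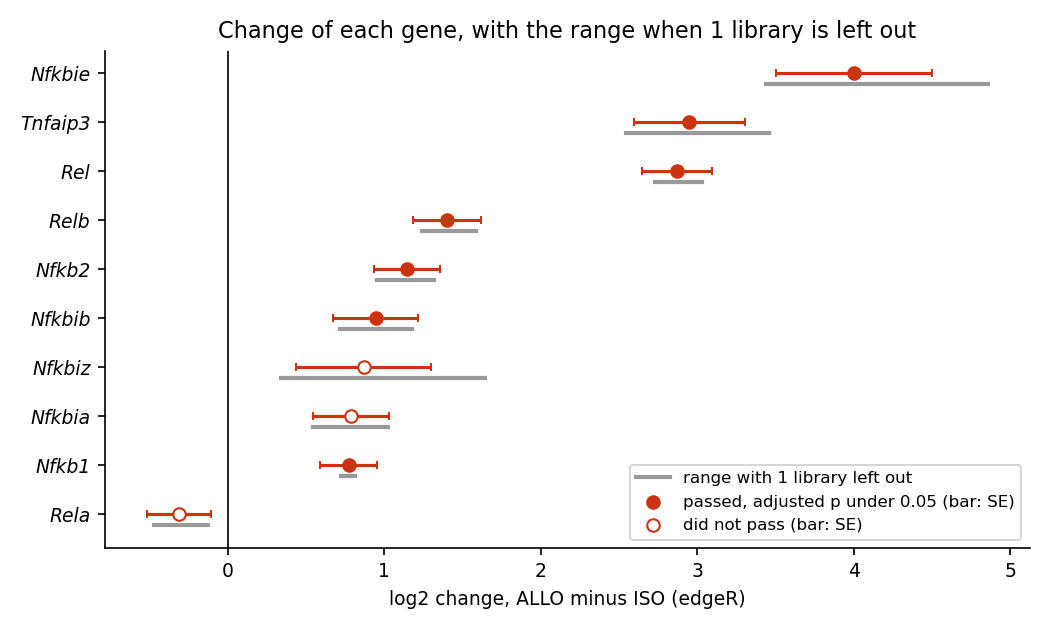
Fitted log2 change of each gene, ALLO minus ISO, with its standard error (filled where it passed an adjusted p of 0.05, open where it did not), and below each a grey line for the range over the 4 fits that leave out 1 library. Nfkbie, Tnfaip3 and Rel lie at 2.87 and above, and the grey line of Nfkbiz spans 0.34 to 1.64.

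ISO replicate 1 was above ISO replicate 2 in 7 of the 10 genes, and the share over all genes was not computed. It was also above in 6 of 6 leukocyte, 5 of 5 fibroblast, 4 of 6 smooth muscle and 2 of 5 endothelial markers. The gap was 2.65 times for Nfkbie, 2.44 times for Nfkbiz and 1.88 times for Tnfaip3, and at most 1.37 times for the other genes in this direction. The part of the marker difference in these gaps was not tested. Rela, Nfkb1 and Nfkbia were slightly lower in ISO replicate 1. With this library left out the fold was 28.9 for Nfkbie, 3.12 for Nfkbiz and 7.69 for Rel. With ISO replicate 2 left out it was 10.9, 1.27 and 6.78. Relb, Rel, Nfkbie and Tnfaip3 stayed higher in ALLO under every one of the 16 alternatives.

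Levels of different genes were compared only per exon length, as CPM per kilobase. In ISO the order was Nfkbia (58.8 ± 7.92, mean ± SD, n = 2), Rela (53.4 ± 2.34), Nfkb2 (12.6 ± 2.16), Nfkbiz (8.82 ± 5.23), Nfkbib (8.44 ± 1.86), Nfkb1 (8.28 ± 0.301), Relb (5.68 ± 0.802), Tnfaip3 (3.11 ± 1.34), Nfkbie (1.52 ± 0.973) and Rel (1.21 ± 0.102). Nfkbia and Rela stood clear of the rest, while Nfkbiz, Nfkbib and Nfkb1 differed by less than their spread, as did Nfkbie and Rel. In ALLO the same scale gave Nfkbia 101 ± 22.4, Rela 43.1 ± 6.62, Nfkb2 27.8 ± 3.14, Nfkbie 24.4 ± 2.92 and Tnfaip3 24.0 ± 1.46. Below them came Nfkbib (16.2 ± 2.98), Nfkbiz (16.1 ± 1.28), Relb (15.0 ± 2.33), Nfkb1 (14.2 ± 0.142) and Rel (8.85 ± 1.40). Nfkbie and Tnfaip3 thus stood beside Nfkb2 in ALLO, within the spread of the replicates. The exon length of Nfkb1, 12061 bases over all its annotated exons, is the longest of the 10, and a length taken over all exons lowers the level of a gene with long rare exons.

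Summed over the 5 subunit genes, the length-scaled level was 81.5 and 80.9 CPM per kilobase in ISO and 101 and 116.6 in ALLO. Over the 5 inhibitor genes it was 81.8 and 79.7 in ISO and 164 and 200.1 in ALLO. The summed levels of subunits and inhibitors were thus about equal in each ISO library, and in each ALLO library the inhibitors had the higher sum. The near equality in ISO rests on the length scaling. In plain CPM the subunits summed to 318 and 317 in ISO and to 483 and 524 in ALLO, and the inhibitors to 206 and 163 in ISO and to 492 and 563 in ALLO. These sums and the shares drawn from them are descriptions and were not tested.

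Rela made up 63.5% and 68.1% of the summed subunit level in the ISO libraries and 37.9% and 41.0% in the ALLO libraries. The share of Nfkb2 was 17.3% and 13.7% in ISO and 25.3% and 25.8% in ALLO. Relb had 7.66% and 6.32% in ISO and 13.2% and 14.3% in ALLO. The share of Rel was 1.58% and 1.41% in ISO and 9.72% and 6.74% in ALLO, and that of Nfkb1 9.90% and 10.5% against 13.9% and 12.2%. The groups did not overlap for any of the 5 subunits. These are not 5 separate results, since the shares in a library are parts of the same sum. How often shares in other sets of genes fail to overlap was not computed. In CPM of single genes, a different measure, the groups did not overlap for 72.5% of all genes tested.

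On the inhibitor side, Nfkbia made up 65.1% and 80.9% in ISO and 52.1% and 58.6% in ALLO, also without overlap. Nfkbie had 2.70% and 1.04% in ISO and 16.1% and 11.2% in ALLO, and Tnfaip3 4.97% and 2.71% in ISO and 14.0% and 12.5% in ALLO. Both stood apart between groups, and these shares too are parts of the same sum. The shares of Nfkbib and Nfkbiz overlapped between groups, at 8.94% to 11.9% and 6.43% to 15.3% in ISO and 8.60% to 9.17% and 8.51% to 9.26% in ALLO.

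**Figure D3:**
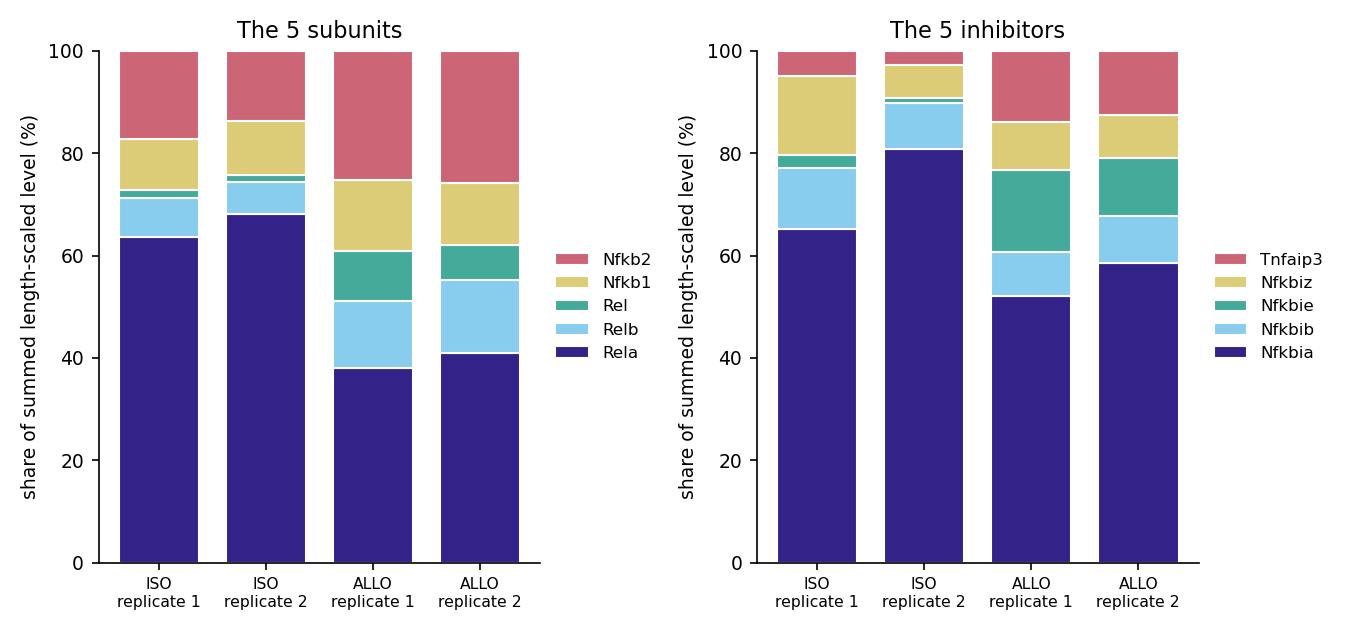
Stacked bars of each gene's share, in percent, of the summed length-scaled level of the 5 subunits (left) and the 5 inhibitors (right), 1 bar per library. The Rela block shrinks from 63.5% and 68.1% in ISO to 37.9% and 41.0% in ALLO, and the Nfkbie and Tnfaip3 blocks widen.

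The wider pathway was read from 6 lists of 120 genes, set beside the 18.4% of all genes called higher. Upstream of the subunits, 8 of 22 genes of the IKK activation list rose and 0 fell (median log2 change 0.66). Birc3, a ubiquitin ligase of the TNF receptor complex, rose 4.26-fold from 27.7 and 25.5 CPM to 131.6 and 94.7 CPM (edgeR adjusted p = 0.00509). The adaptor gene Myd88 and the kinase gene Irak4 rose 2.45- and 2.50-fold, and Chuk, which encodes an IKK kinase subunit, 1.80-fold (edgeR adjusted p = 0.0122, 0.0111 and 0.0230). Leaving out ISO replicate 1 reduced the number that rose to 3, leaving out ISO replicate 2 to 2, and leaving out ALLO replicate 1 to 4. Chuk missed the threshold without any of those 3 libraries (edgeR adjusted p = 0.0548 to 0.140) and Myd88 without ISO replicate 2 (0.0557), while Birc3 and Irak4 passed each time.

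Of the 12 genes that carry signals from antigen receptors to NF-kappaB, 10 rose and 0 fell (median 4.43). Zap70, a kinase of the T cell receptor, went from 0.819 and 0.604 CPM in ISO to 24.1 and 37.0 CPM in ALLO, 42.5-fold (edgeR adjusted p = 0.00301). Prkcq, the protein kinase C of T cells, rose 20.7-fold, Btk, the B cell and myeloid kinase, 28.2-fold and Plcg2, a phospholipase of the same cells, 7.02-fold (edgeR adjusted p = 0.00412, 0.00951 and 0.00438). With ISO replicate 1 left out Btk was 77.8-fold higher, and with ISO replicate 2 left out 17.0-fold. Btk had only 38 and 8 counts in the ISO libraries and Zap70 14 and 10, so the sizes of their folds are uncertain. Several genes of this list are expressed mainly in leukocytes, whose markers were also higher, and the part of cell number in these changes was not tested.

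Of 13 canonical ligand and receptor genes, 6 rose and 0 fell (median 2.70). Tlr9, a sensor of DNA, had 1.29 and 1.33 CPM in ISO and 78.8 and 71.9 CPM in ALLO, 57.4-fold higher (edgeR adjusted p = 0.00214). The receptor genes Tlr2, Tlr7 and Tnfrsf1b were 18.8-, 16.7- and 10.2-fold higher (edgeR adjusted p = 0.00216, 0.00359 and 0.00821), and that of Tnfrsf1b was 17.4-fold without ISO replicate 1. Tnf, chosen after its values were seen, had 39 and 2 counts in ISO and 152 and 174 counts in ALLO. It did not pass (edgeR adjusted p = 0.111), but did without ISO replicate 1 (0.00121).

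The non-canonical list of 13 genes had 9 that rose and 2 that fell (median 3.31). Among the 9, Cd40lg, Lta, Tnfsf11 and Tnfrsf13c had 0 counts in ISO replicate 2 and at most 6 in ISO replicate 1. Tnfsf14 had 15 and 2 counts in ISO. None of these would have passed the low-count filter on ISO alone, so they could hardly come out lower. The count and the median rest partly on that filter, which all genes tested went through. Cd40, a receptor that feeds Map3k14, had 3.27 and 3.20 CPM in ISO and 26.1 and 38.2 CPM in ALLO, 9.91-fold higher (edgeR adjusted p = 0.00395). Ltb, a lymphotoxin gene, rose 20.8-fold (edgeR adjusted p = 0.0111), which became 55.9-fold without ISO replicate 1 and 12.6-fold without ISO replicate 2. It had 64 and 14 counts in the ISO libraries. The CD40 ligand gene Cd40lg, chosen after its values were seen, had 0 counts in both ISO libraries and 86 and 85 in ALLO, at least 11.6-fold higher on a floor of 6 counts per library (edgeR adjusted p = 0.00795). Tnfrsf12a, the TWEAK receptor gene, fell from 289 and 300.7 CPM to 8.99 and 30.2 CPM (log2 change -3.91 ± 0.62, edgeR adjusted p = 0.0109). Its change was -3.26 without ALLO replicate 1 and -5.03 without ALLO replicate 2. Tnfrsf11a, the RANK gene, had a log2 change of -0.85 ± 0.18 (edgeR adjusted p = 0.0235), which did not pass without ISO replicate 1 (0.103), ISO replicate 2 (0.0957) or ALLO replicate 2 (0.0541). Over the list the numbers were 5 higher and 2 lower without ALLO replicate 1, and 6 and 1 without ALLO replicate 2.

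Among 23 other inhibitors and negative regulators, 7 rose and 3 fell (median 0.29). Tnip1, which encodes a partner of the Tnfaip3 protein, rose 3.82-fold from 27.9 and 23.5 CPM to 97.2 and 99.5 CPM (edgeR adjusted p = 0.00396). Tnip3, a relative of it, rose 34.5-fold, Nfkbid, a nuclear IkappaB gene, 13.8-fold, and N4bp1 2.64-fold (edgeR adjusted p = 0.00570, 0.0134 and 0.00766). Without ISO replicate 1 the fold of Tnip3 was 59.7 and that of Nfkbid 32.5, and without ISO replicate 2 that of Nfkbid was 8.64. In ISO replicates 1 and 2 Tnip3 had only 13 and 5 counts and Nfkbid 35 and 9. Values so near the floor of 6 counts leave the sizes of these folds uncertain. Rnf11, whose protein works in the complex of the Tnfaip3 enzyme, changed the other way, from 217 and 215 CPM to 69.5 and 76.5 CPM (log2 change -1.57 ± 0.19, edgeR adjusted p = 0.00589). The deubiquitinase gene Otud7b also fell, with a change of -1.30 ± 0.17 (edgeR adjusted p = 0.00698). The last of the 3, Nkiras2, a gene for a Ras-like inhibitor (named with its values in view), had a log2 change of -0.74 (edgeR adjusted p = 0.0320). It did not pass when scaled by library size alone (edgeR adjusted p = 0.0833), or without any 1 of the libraries except ALLO replicate 2 (0.0836 to 0.160).

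Of 37 textbook target genes, 32 passed the filter on low counts, and of these 21 rose and 3 fell (median 1.98). Among the 21, Il6, Il12b and Bcl2a1b had 0 counts in ISO replicate 2 and at most 8 in ISO replicate 1. They passed that filter through ALLO and could hardly come out lower. Irf1, an interferon regulatory factor, rose 4.63-fold from 35.3 and 42.2 CPM to 160.6 and 198 CPM (edgeR adjusted p = 0.00444). The chemokine gene Ccl5 rose 73.5-fold, the interleukin-2 receptor gene Il2ra 53.6-fold and the co-stimulator gene Cd86 25.7-fold (edgeR adjusted p = 0.00344, 0.00284 and 0.00380). Il2ra had only 12 and 6 counts in the ISO libraries, so the size of its fold is uncertain. Without ISO replicate 1 the fold was 128 for Ccl5 and 40.9 for Cd86. The 3 that fell were the anti-apoptotic gene Bcl2l1, the stress gene Ier3 and, chosen after its values were seen, the tissue factor gene F3. Their log2 changes were -1.24, -0.99 and -1.27 (edgeR adjusted p = 0.0240, 0.0222 and 0.0319). Bcl2l1 missed the threshold without ISO replicate 2 or ALLO replicate 1 (edgeR adjusted p = 0.0706 and 0.0713), Ier3 without any 1 of the libraries except ALLO replicate 2 (0.0519 to 0.0799) and F3 without any except ISO replicate 2 (0.0514 to 0.0930). Il6, chosen after its values were seen, had 0 counts in both ISO libraries and 145 and 83 in ALLO, at least 15.7-fold higher (edgeR adjusted p = 0.00937). Without ALLO replicate 1, 15 of these genes rose and 0 fell, and against a 1.5-fold threshold (glmTreat) 17 rose and 0 fell.

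**Figure D4:**
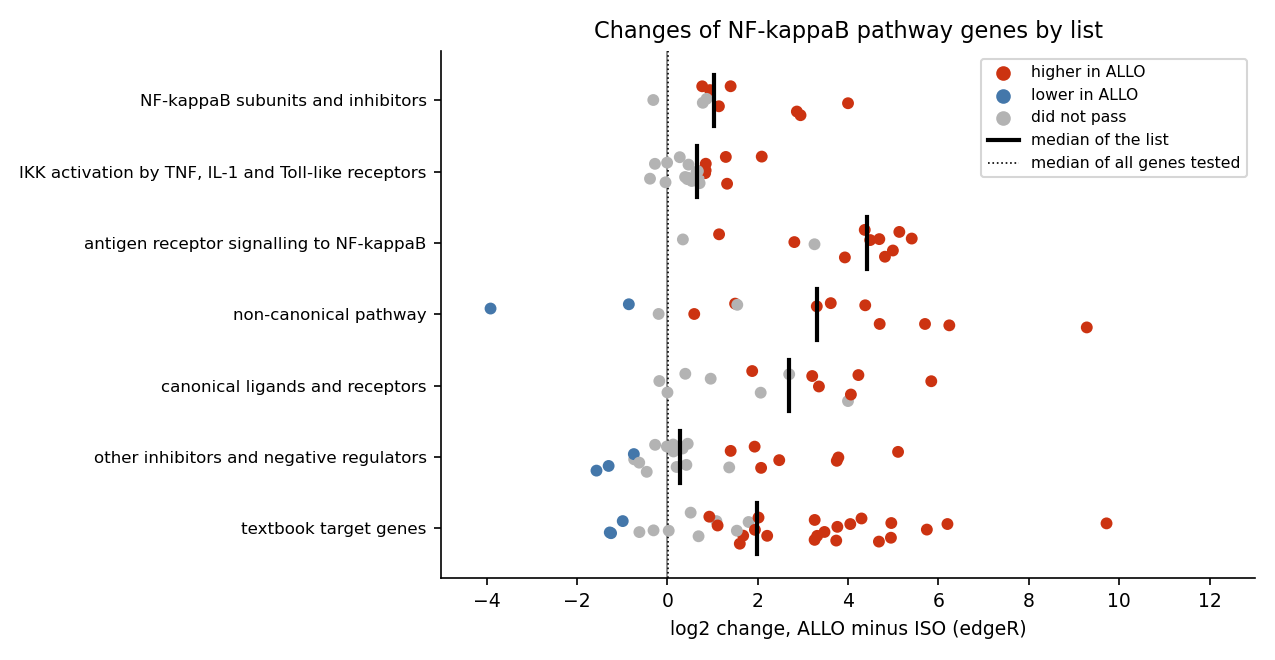
Fitted log2 change, ALLO minus ISO, of each gene tested (points, red higher, blue lower, grey did not pass) in the 10 subunits and inhibitors and the 6 pathway lists, with each list's median as a black bar and the median of all genes tested (0.03) dotted. The points at 9.28 and 9.72 are Cd40lg and Il6, which had 0 counts in ISO, so that their fitted values are no measure of size.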

How the data were processed

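The authors deposited raw read counts per Ensembl gene for 4 libraries. Per the submitters' processing notes they used Subread 1.6.4 with featureCounts on mm10, and DESeq2 1.30.0 in R 4.0.3. Not given in the sources used here are the aligner, the annotation release and the strand setting. GENCODE M21 named 54723 of 54752 IDs.

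Genes were filtered with filterByExpr (minimum count 10), scaled by TMM and tested with edgeR 4.0.16 (glmQLFTest, group as the only term), at a Benjamini-Hochberg adjusted p of 0.05. The SE was taken from the log2 change and the F statistic. Of genes with 1 to 20 counts, 68.0% to 74.6% had an even count, so both mates of a pair were probably counted, and the floor was set at 6 counts, or 3 read pairs. Replicates differed beyond sampling noise (chi-square over degrees of freedom, on halved counts, of 20.8 in ISO and 69.4 in ALLO). The fit was checked on simulated counts.

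The genes and the lists were chosen with earlier results of these data known, and no set test was run. Named genes were the 10 and those with the smallest adjusted p and a mean of at least 50 counts in each list (at most 4 for the direction with more calls, at most 2 for the opposite one). Tnfsf11 and Tnfrsf13c met this rule, both called higher, and their changes are not given, as both had 0 counts in ISO replicate 2. Lta, Tnfsf14, Il12b and Bcl2a1b are named only for their low ISO counts. That ground was not applied to Cd40lg and Il6, chosen with their values in view and with 0 counts in both ISO libraries. Alternatives used limma 3.58.1, DESeq2 1.42.0 and R 4.3.3. Upstream windows came from RefSeq, and those overlapping GENCODE exons are printed only around a match.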

Additional observations from a re-analysis of the deposited data

How the results depend on the processing

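Rel, Relb, Nfkbie and Tnfaip3 kept their direction and passed, and Rela did not pass, under all 16 alternatives. No subunit or inhibitor changed direction. All genes called numbered 5469, and 3603 to 4651 when 1 library was left out. The 7 subunits and inhibitors became 4 to 7. Of the lists, IKK activation (8 called) gave 2 to 9 with 1 library left out, 3 against 1.5-fold with glmTreat and 4 with the replicate block, non-canonical (11) 7 to 10 and the targets (24) 15 to 25, with 17 against 1.5-fold, none of them lower. The cause of these moves was not tested. Leaving out a library also changes the group size and the number of genes tested, and no fit separated these.

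The replicate block gave 5 called subunits and inhibitors, without Nfkb1 (edgeR adjusted p = 0.0626) and Nfkbib (0.0739), and 4873 genes in all. Of the other named genes it ended the call of Nkiras2 (edgeR adjusted p = 0.0755). The labels do not say that numbers pair libraries, and over 16498 genes the deviations of same-numbered libraries correlated at 0.0974. Scaling by library size alone shifted the median log2 change of all genes by 0.19 and gave 3546 higher and 1867 lower genes, against 3032 and 2437.

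Without length scaling, mean shares in ISO and ALLO were 45.7% and 23.2% for Rela, 2.85% and 13.2% for Rel and 31.5% and 33.9% for Nfkb1. In ALLO they were 11.5% for Relb and 18.1% for Nfkb2. Among inhibitors they were 52.6% and 30.8% for Nfkbia, 23.2% and 15.4% for Nfkbiz and 11.9% and 33.0% for Tnfaip3, and 6.65% in ALLO for Nfkbib. These moves follow from the gene lengths.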
